A study of Mus musculus with 2 samples.

Results

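The type I interferon response genes described here are 37 genes chosen by name, which cells switch on when type I interferon binds its receptor. They were matched by symbol, and 36 of the 37 were found among the 32285 genes measured, while *Mx1* was not analysed here. Their expression was followed in single cells of mouse quadriceps at 1 and 3 days after injury, in 6735 cells of day 1 and 4627 cells of day 3.

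Both groups were male *wild-type* mice, 14 weeks old, whose quadriceps was injured by injection of 1.2% BaCl2, a salt that kills muscle fibres and spares most of the other cells. Each day was 1 droplet library of single cells pooled from 5 mice, so there was no replicate, and no test was possible. Uninjured muscle was not analysed here, so that every comparison is of day 3 with day 1. The list of possible barcodes held 737280 entries on day 1 and 6794880 on day 3, so that library chemistry and day cannot be told apart.

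Type I interferons are secreted proteins that bind a receptor made of IFNAR1 and IFNAR2. Its kinases JAK1 and TYK2 start a signal that reaches the nucleus through a complex with STAT2 and IRF9, which binds the interferon-stimulated response element in front of the target genes. Most targets hinder viruses by binding foreign RNA, degrading RNA, depleting nucleotides or trapping virus particles. Several of them are the sensors and transcription factors of the pathway itself, and tissue injury without infection is also known to set the response in motion.

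The promoters are shown for a few members that carry the results. These are *Isg15*, the ubiquitin-like modifier, the *Ifit1*, *Ifit3* and *Ifit3b* genes and *Rsad2*, whose levels are described in detail. *Oas1a*, which was not higher on day 3 in monocytes/macrophages, is shown as well. Each window runs from 250 bases before to 50 bases after the start of the gene in RefSeq on GRCm38.p6, 5′ to 3′ on the strand of the gene. Capitals mark matches, on either strand and with overlapping matches run together, to GAAA-NN-GAAA, the core of the interferon-stimulated response element, in which N is any base, or to TTCNNNGAA, the gamma-activated site. A core on the opposite strand reads TTTC-NN-TTTC. The windows are *Isg15* at chr4:156200769-156201068 on the minus strand, *Ifit1* at chr19:34640639-34640938, *Ifit3* at chr19:34583279-34583578 and *Ifit3b* at chr19:34607707-34608006 on the plus strand, *Rsad2* at chr12:26456403-26456702 and *Oas1a* at chr5:120907476-120907775 on the minus strand.
Isg15: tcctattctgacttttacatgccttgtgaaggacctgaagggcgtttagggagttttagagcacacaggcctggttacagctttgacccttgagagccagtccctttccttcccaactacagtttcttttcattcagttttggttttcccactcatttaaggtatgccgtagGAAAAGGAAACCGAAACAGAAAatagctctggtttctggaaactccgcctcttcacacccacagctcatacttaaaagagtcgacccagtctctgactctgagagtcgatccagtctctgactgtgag
Ifit1: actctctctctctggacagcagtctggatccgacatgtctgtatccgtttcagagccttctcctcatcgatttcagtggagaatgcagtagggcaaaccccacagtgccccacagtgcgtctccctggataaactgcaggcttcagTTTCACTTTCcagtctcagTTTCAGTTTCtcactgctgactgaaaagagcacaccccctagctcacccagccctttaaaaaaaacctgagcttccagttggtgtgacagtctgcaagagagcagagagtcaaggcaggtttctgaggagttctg
Ifit3: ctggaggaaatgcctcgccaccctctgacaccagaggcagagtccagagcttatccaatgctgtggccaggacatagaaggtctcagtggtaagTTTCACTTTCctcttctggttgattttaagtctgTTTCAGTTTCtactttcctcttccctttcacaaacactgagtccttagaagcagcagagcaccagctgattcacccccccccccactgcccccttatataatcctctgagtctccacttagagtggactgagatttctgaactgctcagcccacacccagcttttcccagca
Ifit3b: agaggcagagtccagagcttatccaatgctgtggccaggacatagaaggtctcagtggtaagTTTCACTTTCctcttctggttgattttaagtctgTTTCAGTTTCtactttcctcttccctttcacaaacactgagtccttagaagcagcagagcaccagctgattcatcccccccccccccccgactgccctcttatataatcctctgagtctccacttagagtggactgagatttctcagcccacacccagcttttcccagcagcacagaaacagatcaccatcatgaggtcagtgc
Rsad2: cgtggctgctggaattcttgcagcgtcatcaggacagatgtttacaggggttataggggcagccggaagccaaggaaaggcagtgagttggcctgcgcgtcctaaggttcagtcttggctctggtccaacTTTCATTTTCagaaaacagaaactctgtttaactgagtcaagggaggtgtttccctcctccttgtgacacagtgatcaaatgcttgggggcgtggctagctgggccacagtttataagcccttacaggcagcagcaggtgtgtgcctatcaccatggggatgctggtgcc
Oas1a: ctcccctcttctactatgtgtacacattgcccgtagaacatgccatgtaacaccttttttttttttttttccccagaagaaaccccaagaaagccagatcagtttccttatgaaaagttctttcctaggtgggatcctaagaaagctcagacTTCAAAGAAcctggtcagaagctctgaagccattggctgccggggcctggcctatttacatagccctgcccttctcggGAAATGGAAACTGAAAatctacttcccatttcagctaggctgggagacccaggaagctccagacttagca

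The *Isg15* window held 3 overlapping matches to the core, which began 78, 72 and 66 bases before the start. The *Ifit1* window held matches beginning 104 and 85 bases before the start, all on the opposite strand. *Ifit3* and *Ifit3b*, neighbours on chromosome 19, each held a pair of such matches spaced alike. Their windows were identical at 201 of 268 bases, or 75.0%, when shifted by 32 bases with no gaps allowed. How alike their transcripts are was not measured. Reads that match both genes may be lost or wrongly assigned, so the levels of *Ifit3* and *Ifit3b* are uncertain as single genes.

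A promoter window was given for 29 of the 36 members. GAAA-NN-GAAA was found in 14 of these 29 members, or 48.3%, and in 1079 of 27025 genes, or 3.99%. TTCNNNGAA was found in 7 of 29, or 24.1%, and in 2582 of 27025 genes, or 9.55%, and 3 members (*Bst2*, *Eif2ak2* and *Oas1a*) held both. Members with and without the motif had similar ratios. In monocytes/macrophages the median log2 ratio of day 3 over day 1 was 1.73 for the 14 members with the core and 1.58 for the 15 without it. *Oas1a*, with 2 overlapping matches beginning 20 and 14 bases before its start, was the only member not higher in that class.

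The cells were the barcodes with the most unique molecular identifiers (UMIs, each counting 1 captured RNA molecule), at most 7.5% of them from mitochondrial genes. That limit took out 517 barcodes of day 1, or 7.02%, and 2013 of day 3, or 30.3%, and the median cell kept held 9389 UMIs on day 1 and 14548 on day 3. No cell barcode was shared by the libraries. Clusters were named from marker genes, with neither the 36 members nor other known interferon-induced genes used for clustering. The classes were 3507 and 2759 monocyte/macrophage-like cells on day 1 and day 3, 2078 and 253 neutrophil-like, 396 and 491 dendritic cell-like and 661 and 850 stromal cells, the latter led by genes of fibroblasts or fibro-adipogenic progenitors on day 3 and also by the tendon gene *Thbs4* on day 1. The summed level of the 8 neutrophil markers was 79868 and 26950 CPM in neutrophils against 1554 and 407 CPM in monocytes/macrophages on day 1 and day 3, and that of the 10 macrophage markers 4410 and 9528 CPM in monocytes/macrophages against 306 and 2130 CPM in neutrophils. The 9 dendritic cell markers summed to 589 and 389 CPM in dendritic cells against 4.10 and 3.15 CPM in monocytes/macrophages, and the 8 fibroblast markers to 6564 and 22745 CPM in stromal cells against 31.3 and 91.6 CPM in monocytes/macrophages.

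The members were expressed at a higher summed level on day 3 in each of the 4 cell classes compared, although in neutrophils not when the change of the median gene was taken off (log2 ratio -0.39). Levels are UMIs per 1000000 UMIs of the same cells (CPM), and values in parentheses are exact 95% confidence intervals, which cover counting error only and say nothing of how mice or libraries vary. Over all cells the 36 members held 843 CPM (836 to 850) on day 1 and 1856 CPM (1847 to 1865) on day 3, a log2 ratio of 1.14 (1.13 to 1.15). The mix of cells also differed: the class levels of day 1 combined with the mix of day 3 gave 713 CPM, and those of day 3 with the mix of day 1 gave 2067 CPM, so that the ratio was as large with the mix held fixed. Monocytes/macrophages held 65.3% of all member UMIs on each day, and 57.6% of the UMIs of all genes on day 1 and 52.1% on day 3.

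The order of the cell classes differed between the days. On day 1 the summed level was highest in neutrophils at 1339 CPM (1308 to 1371), followed by dendritic cells at 1040 CPM (1012 to 1069), monocytes/macrophages at 955 CPM (946 to 965) and stromal cells at 424 CPM (415 to 433). On day 3 it was highest in dendritic cells at 3031 CPM (2986 to 3077), followed by monocytes/macrophages at 2327 CPM (2313 to 2341), neutrophils at 1680 CPM (1585 to 1779) and stromal cells at 1373 CPM (1358 to 1387). No 2 neighbours in either order had overlapping counting intervals, but these leave out the spread between cells, mice and libraries, so the order is a description. Free RNA would hold 30.6% of the neutrophil level of day 3, and the order without it was not tested. In the dendritic cells of day 3 monocyte/macrophage markers summed to 4642 CPM and dendritic cell markers to 389 CPM. The order with the cells named in other ways was not tested. The log2 ratio of the sum was 1.70 in stromal cells, 1.54 in dendritic cells, 1.28 in monocytes/macrophages and 0.33 in neutrophils. A cluster of myoblasts, led by *Gal* and *Ttn* with 5 cells on day 1, held 171 CPM (163 to 180) in 206 cells of day 3, the lowest level of the classes of that day.

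**Figure D1:**
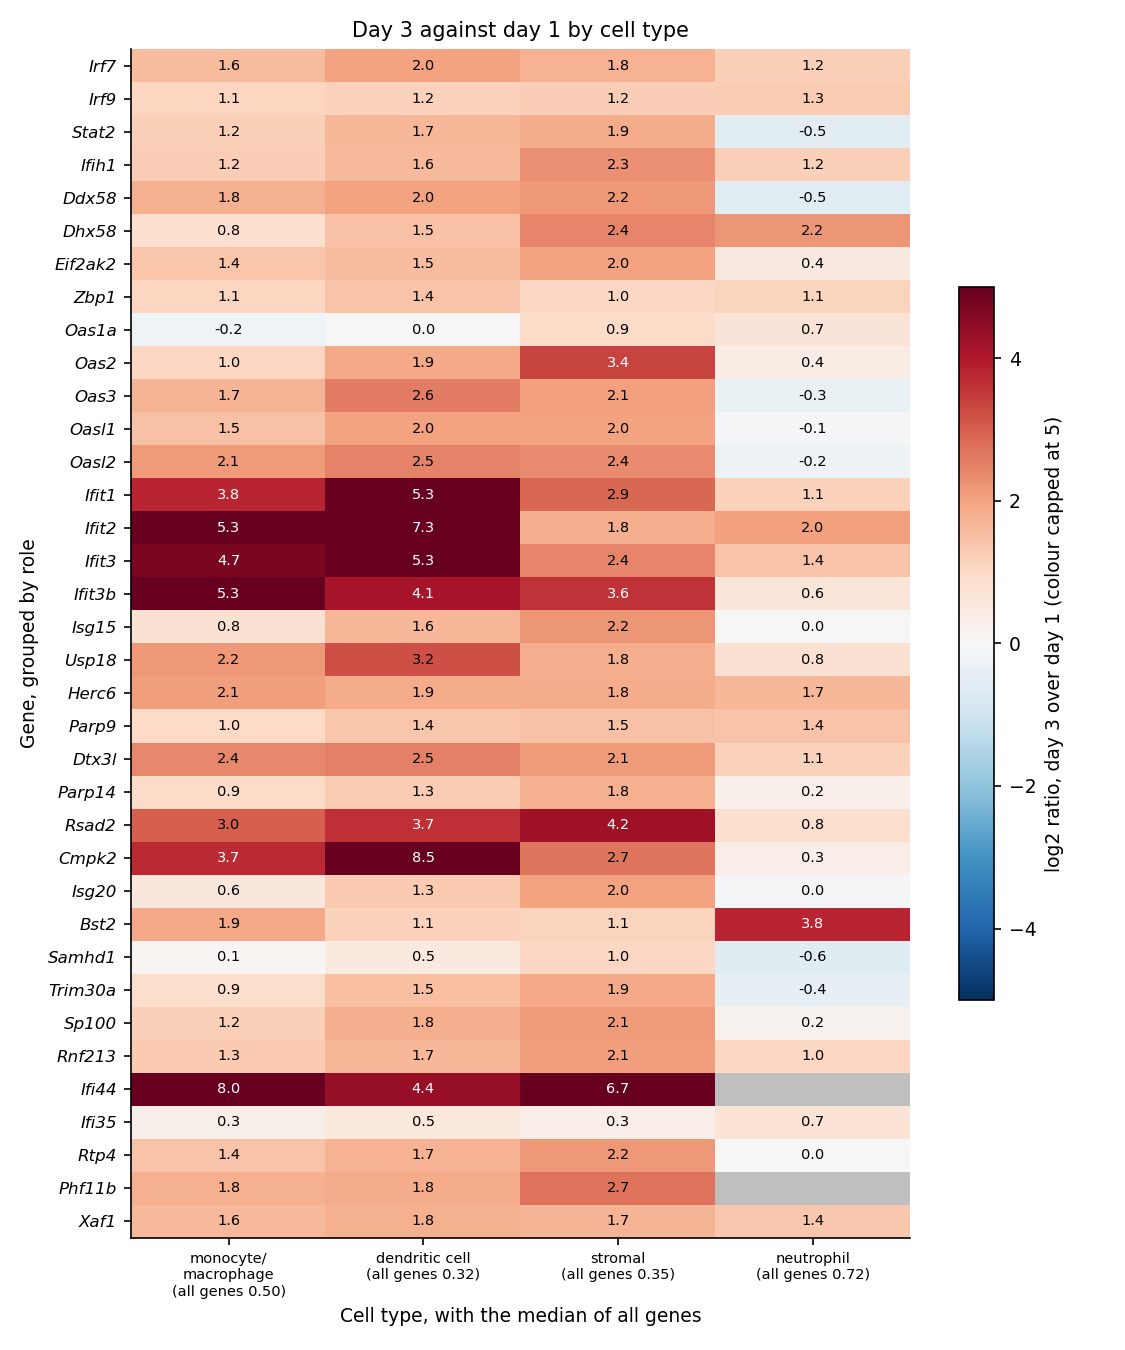
Heat map of the log2 ratio of day 3 over day 1 for each of the 36 members, ordered by role, in 4 cell classes, with the colour capped at a log2 ratio of 5 and the 2 members under 20 UMIs in neutrophils in grey. Ifi44 in monocytes/macrophages and Cmpk2 in dendritic cells had 0 UMIs on day 1, so that their printed ratios rest on the 0.5 added to each count. Nearly all fields of the monocyte/macrophage, dendritic and stromal columns are above 0, the IFIT family stands out in the monocytes/macrophages and dendritic cells, and the neutrophil column is mixed.

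Taken gene by gene over all cells, 26 of the 36 members were at least 2-fold higher on day 3 and 0 were at least 2-fold lower. Among all 15671 genes with at least 20 UMIs, 30.0% were at least 2-fold higher and 6.02% at least 2-fold lower, and the median log2 ratio was 0.49 for all genes and 1.36 for the members. Among genes with at least 500 UMIs, which all 36 members had, the shares of all genes were 20.9% and 4.70%. Measured from that median of all genes, 15 members were at least 2-fold higher and 32 lay above it. In monocytes/macrophages 28 of 36 members were at least 2-fold higher and 0 lower, against 30.7% and 5.71% of 12864 genes, with a median of 1.44 for the members and 0.50 for all genes, and 17 members were 2-fold higher when measured from that median. For 24 of the 28 the interval of the ratio lay wholly above 2-fold. The share of all genes 2-fold above their median was not computed. Nor was the share with an interval wholly above 2-fold, in this class or the others. Genes with few UMIs reach 2-fold more easily, and among genes with at least 500 UMIs in this class 26 of 34 members and 19.8% of all genes were 2-fold higher, and 0 members and 5.09% of all genes were 2-fold lower.

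The class changed its clusters between the days. On day 1 most monocytes/macrophages lay in clusters led by *Ccl24* (1196 cells), *Cd163* (1040 cells) and *Dmkn* (949 cells), and on day 3 in those led by *Ifi213* (1224 cells), *Gpnmb* (767 cells) and *Mki67* (449 cells). Values over the class therefore compare different kinds of monocytes/macrophages, and the part of this in the ratios was not tested beyond the levels by cluster given further on.

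The transcription factors of the response were all higher in monocytes/macrophages on day 3. *Irf7*, which drives further interferon production and is itself induced, stood at 43.4 CPM (41.4 to 45.4) on day 1 and 129 CPM (126 to 133) on day 3, with a log2 ratio of 1.58. *Irf9*, the DNA-binding part of the complex with STAT2, stood at 19.0 and 40.1 CPM, and *Stat2* at 11.0 and 25.5 CPM. These 3 genes were also at least 2-fold higher in dendritic and stromal cells.

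Of the 5 sensors of foreign or misplaced nucleic acid, 4 were at least 2-fold higher on day 3 in monocytes/macrophages. *Ddx58*, which encodes RIG-I, a receptor for viral RNA ends, stood at 9.68 CPM on day 1 and 32.8 CPM on day 3, and *Ifih1*, its relative for long RNA duplexes, at 15.5 and 36.1 CPM. *Dhx58*, the regulator of both, stood at 16.7 and 29.7 CPM, a log2 ratio of 0.83. *Eif2ak2*, the kinase that halts translation on binding RNA duplexes, stood at 14.0 and 36.6 CPM, and *Zbp1*, a sensor of Z-form nucleic acid that can start necroptosis, at 33.7 and 71.1 CPM. *Dhx58* was the only sensor under 2-fold in these cells.

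The oligoadenylate synthetases, which make the messenger that activates RNase L, did not move together. *Oas1a* was the only member whose interval lay below 0 in monocytes/macrophages, at 36.7 CPM (34.8 to 38.6) on day 1 and 31.2 CPM (29.5 to 32.9) on day 3, a log2 ratio of -0.23. Its neighbours on chromosome 5 were higher, *Oas2* at 6.78 and 13.8 CPM and *Oas3* at 8.93 and 29.2 CPM. *Oasl1*, a relative without synthetase activity that restrains *Irf7* translation, stood at 10.2 and 28.2 CPM, and *Oasl2* at 18.0 and 77.9 CPM, with a log2 ratio of 2.11. *Oas1a* has close copies in the mouse genome, and its level as a single gene is uncertain.

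**Figure D2:**
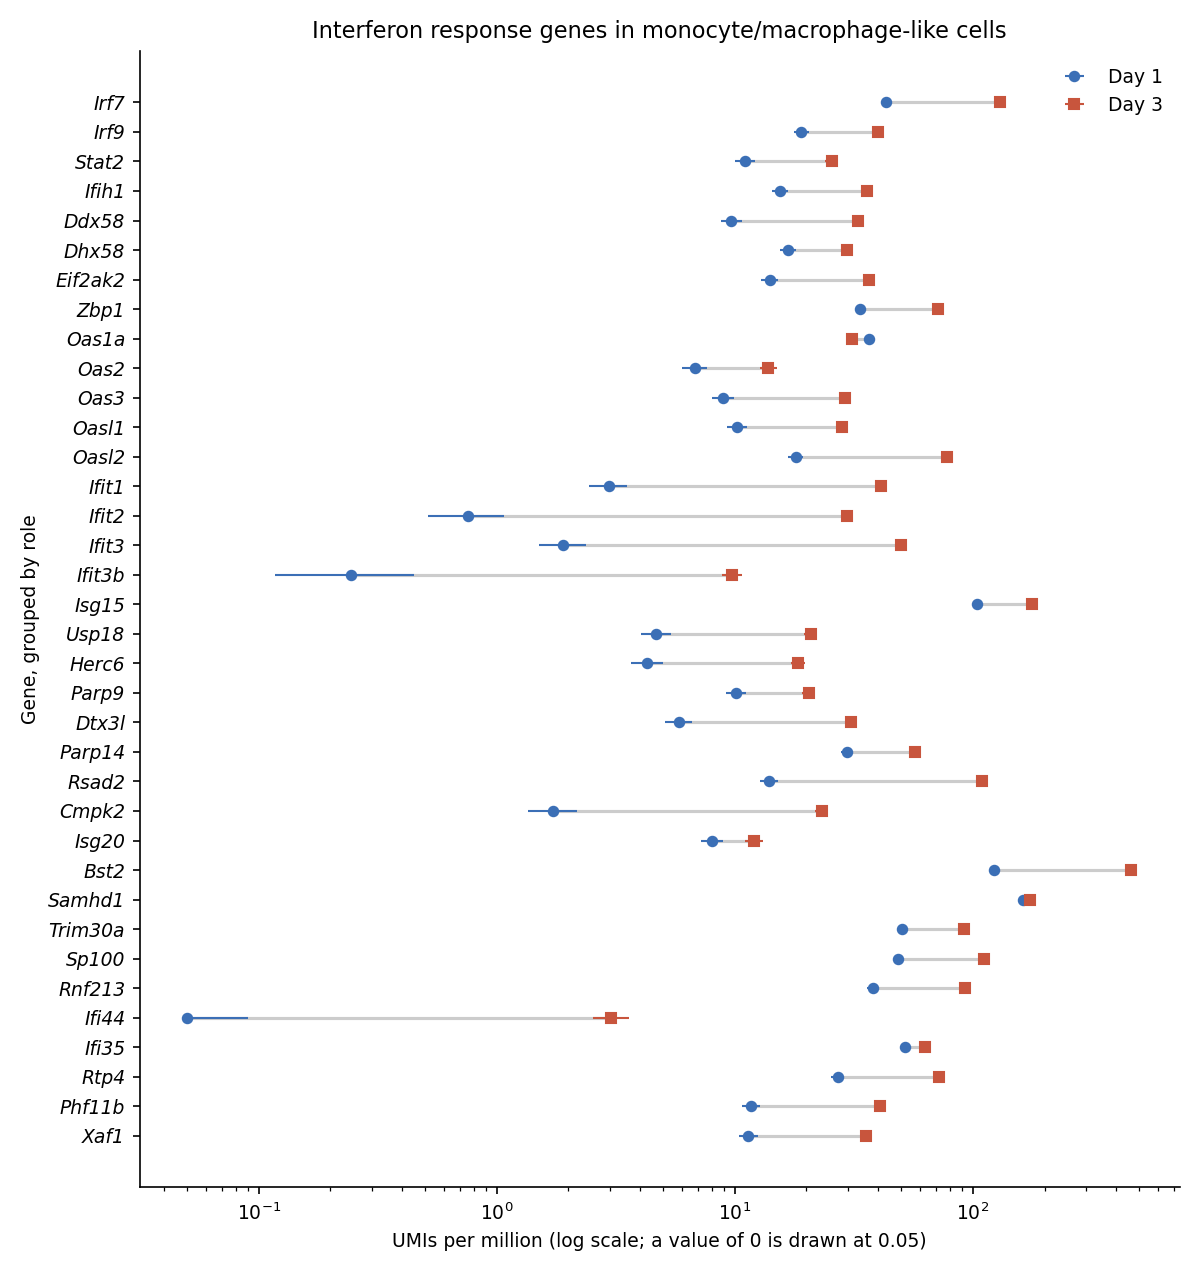
Level of each of the 36 members in monocyte/macrophage-like cells on day 1 and day 3, in CPM on a log axis, with exact 95% Poisson intervals and the members grouped by role. The day 3 points lie to the right of the day 1 points for 35 members and to the left for Oas1a, and the widest gaps are those of the IFIT genes, Cmpk2, Rsad2 and Ifi44.

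The IFIT genes, whose proteins bind RNA with foreign ends, were among the members that differed most. They lie side by side on the plus strand of chromosome 19, from *Ifit2* (chr19:34550694-34576419) through *Ifit3* (chr19:34583531-34588731) and *Ifit3b* (chr19:34607970-34613401) to *Ifit1* (chr19:34640871-34650009) in the GENCODE annotation of GRCm38, and their summed level in monocytes/macrophages was 5.85 CPM on day 1 and 130 CPM on day 3. *Ifit3* stood at 1.90 CPM, from 78 UMIs, and 49.7 CPM (47.6 to 51.8), a log2 ratio of 4.70. *Ifit1* stood at 2.95 and 41.3 CPM, a log2 ratio of 3.80. The low day 1 levels rest on few molecules, with 31 UMIs of *Ifit2* against 1294 on day 3 (log2 ratio 5.26) and 10 of *Ifit3b* against 428 (log2 ratio 5.25).

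ISG15 is joined to proteins by ligases such as HERC6 and removed by USP18, which also blocks the interferon receptor. *Isg15* was among the highest members on day 1 already, at 104 CPM (101 to 107), and stood at 177 CPM (173 to 181) on day 3, a log2 ratio of 0.77. *Usp18* stood at 4.68 and 20.8 CPM and *Herc6* at 4.29 and 18.4 CPM. In this class the modifier thus had a smaller log2 ratio than *Usp18* and *Herc6*, while in stromal cells the ratio was 2.21 for *Isg15*, 1.83 for *Usp18* and 1.85 for *Herc6*. *Parp9* and *Dtx3l*, whose proteins form a complex that modifies proteins with ADP-ribose and ubiquitin, stood at 10.1 and 20.4 CPM and at 5.83 and 30.7 CPM. Their relative *Parp14* stood at 29.6 and 57.2 CPM, a log2 ratio of 0.95.

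Among the remaining antiviral effectors *Rsad2* (chr12:26442746-26456452) and *Cmpk2* (chr12:26469204-26479837) stood out, neighbouring protein-coding genes on opposite strands whose enzymes make a chain-terminating nucleotide. *Rsad2* stood at 13.9 CPM (12.8 to 15.1) on day 1 and 110 CPM (106 to 113) on day 3, a log2 ratio of 2.97, and *Cmpk2* at 1.73 and 23.2 CPM, a log2 ratio of 3.73. *Bst2* (chr8:71534255-71537456), whose protein tethers budding virus to the cell, had the highest level of all members on day 3, at 462 CPM (456 to 468) against 123 CPM (119 to 126). UMIs count molecules at their 3′ ends, so that transcript length does not enter these comparisons between genes.

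*Samhd1*, which degrades nucleotides, had the highest level of all members on day 1 and differed little, at 162 CPM (158 to 166) and 174 CPM (170 to 177), a log2 ratio of 0.10. *Isg20*, an exonuclease, stood at 8.02 and 12.0 CPM, and *Trim30a*, which has close copies next to it, at 50.4 and 91.5 CPM. *Sp100*, of the nuclear bodies, stood at 48.4 and 111 CPM and *Rnf213*, a large ubiquitin ligase, at 37.9 and 92.9 CPM. *Samhd1*, *Isg20* and *Trim30a* were thus the effectors under 2-fold in this class.

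The other induced genes were mostly higher. *Ifi44* was not detected in monocytes/macrophages on day 1 and had 133 UMIs, or 3.03 CPM, on day 3, which is at least 41.5-fold higher than the 0.0732 CPM that 3 counts over the class would give. *Rtp4* stood at 27.0 and 72.1 CPM, *Phf11b*, which has close copies, at 11.7 and 40.7 CPM, and *Xaf1*, a promoter of apoptosis, at 11.4 and 35.5 CPM. *Ifi35* stood at 51.7 and 63.2 CPM, a log2 ratio of 0.29, below the 0.50 median of all genes in the class.

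In dendritic cells 33 of 36 members were at least 2-fold higher on day 3 and 0 lower, against 19.4% and 3.79% of 10194 genes, with a median log2 ratio of 1.80 for the members and 0.32 for all genes. Among genes with at least 500 UMIs, 12 of 14 members and 6.24% of all genes were higher, and 0 members and 4.48% lower. The interval lay wholly above 2-fold for 29 of the 36. The class was a single cluster led by *H2-Eb1* on both days. Monocyte/macrophage markers summed in it to 3092 CPM on day 1 and 4642 CPM on day 3, and dendritic cell markers to 589 and 389 CPM. The part of cells other than dendritic cells in the member levels was not tested. With each cell named by its own markers the class held only 132 and 193 cells, with a log2 ratio of the sum of 1.30. With log-normalization it held 112 and 232 cells, with a ratio of 1.28. *Ifit3* stood at 1.79 CPM (0.818 to 3.40) on day 1 and 73.0 CPM (66.2 to 80.4) on day 3, and *Ifit2* at 0.199 CPM, a single UMI, and 48.5 CPM. *Cmpk2* was not detected on day 1 and stood at 36.5 CPM on day 3, at least 61.2-fold above the level of 3 counts. The IFIT sum was 3.58 CPM on day 1 and 176 CPM on day 3.

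In dendritic cells *Isg15* stood at 87.7 CPM on day 1, below its 104 CPM in monocytes/macrophages, and at 275 CPM (261 to 289) on day 3, above their 177 CPM. *Irf7* stood at 47.3 and 189 CPM, *Phf11b* at 30.4 and 109 CPM and *Usp18* at 3.18 and 30.7 CPM. The members under 2-fold were *Samhd1* (log2 ratio 0.48), *Ifi35* (0.52) and *Oas1a* (-0.03, with an interval from -0.34 to 0.29).

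In stromal cells 34 of 36 members were at least 2-fold higher on day 3 and 0 lower, against 26.2% and 7.27% of 13733 genes, with a median log2 ratio of 2.04 for the members and 0.35 for all genes, and the interval lay wholly above 2-fold for 32. Among genes with at least 500 UMIs, 22 of 23 members and 15.9% of all genes were higher, and 0 members and 8.08% lower. *Isg15* stood at 25.7 CPM (23.5 to 28.1) on day 1 and 120 CPM (115 to 124) on day 3, a log2 ratio of 2.21 against 0.77 in monocytes/macrophages. *Rsad2* stood at 1.48 and 28.2 CPM, *Oas2* at 0.952 and 10.1 CPM and *Ifi44* at 0.106 CPM, from 2 UMIs, and 13.6 CPM. *Ifi44* was thus higher in stromal cells than in any of the myeloid classes on day 3, where it had 34 UMIs in 491 dendritic cells and stood at 3.03 CPM in monocytes/macrophages.

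On day 1 the IFIT genes stood higher in stromal cells than in monocytes/macrophages. Their summed stromal level was 18.2 CPM on day 1, above the 5.85 CPM of monocytes/macrophages, and 112 CPM on day 3, below their 130 CPM. In neutrophils the summed IFIT level was 48.7 CPM on day 1 and 111 CPM on day 3. In stromal cells *Ifit1* stood at 7.03 CPM (5.89 to 8.33) on day 1 and 51.8 CPM (49.0 to 54.7) on day 3, and *Ifit3* at 6.29 and 34.0 CPM. *Oas1a* stood at 4.33 and 8.37 CPM, a log2 ratio of 0.94, and *Ifi35* at 30.3 and 37.8 CPM, and these were the members under 2-fold.

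The stromal cells of day 1 lay almost all in the cluster led by *Cxcl5* (634 of 661 cells) and those of day 3 in the cluster led by *Sfrp2* (841 of 850 cells), so that the ratios compare different stromal clusters. Within the *Sfrp2*-led cluster the members summed to 482 CPM (396 to 582) in its 27 cells of day 1 and 1378 CPM (1363 to 1393) in its 841 cells of day 3. The macrophage markers lowest in stromal cells relative to monocytes/macrophages were *C1qa* on day 1 and *Mrc1* on day 3. They allow at most 7.21% and 9.52% of the stromal UMIs to come from macrophages. Such shares would supply 68.8 and 221 CPM of the members. The summed level less these amounts was 355 CPM on day 1 and 1151 CPM on day 3.

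*Ifi35* and *Oas1a* were 2-fold higher in none of monocytes/macrophages, dendritic cells and stromal cells.

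In neutrophils the members did not stand apart from other genes. Of the 34 members with at least 20 UMIs, 14, or 41.2%, were at least 2-fold higher on day 3 and 0 were lower, against 41.5% and 7.37% of 7838 genes, and the median log2 ratio was 0.66 for the members and 0.72 for all genes. Among genes with at least 500 UMIs, 0 of 4 members and 16.9% of all genes were 2-fold higher, and 0 members and 17.3% lower. Measured from the median of all genes, the log2 ratio of the neutrophil sum was -0.39.

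Several members were expressed in neutrophils on day 1 already. *Isg15* stood at 249 CPM (235 to 263) on day 1 and 243 CPM (207 to 282) on day 3, with overlapping intervals. *Oasl2* stood at 87.8 CPM (79.8 to 96.2) on day 1, *Rsad2* at 60.0 CPM (53.5 to 67.1), *Isg20* at 59.8 CPM (53.3 to 66.9) and *Ifit1* at 22.3 CPM (18.4 to 26.8), each above its day 1 level in monocytes/macrophages, dendritic cells and stromal cells. *Samhd1* stood at 275 and 180 CPM, a log2 ratio of -0.61 (-0.89 to -0.35). *Bst2* was the only member whose interval lay above 2-fold, at 13 CPM (10.1 to 16.5) and 185 CPM (155 to 220).

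The neutrophils of day 3 were few and carried markers of other cells. Their 253 cells had a median of 1619 UMIs, and fibroblast markers summed to 2410 CPM against 123 CPM on day 1, and monocyte/macrophage markers to 2130 CPM against 306 CPM. Collagen genes put the share of free RNA at 39.9% of their UMIs on day 3 and 2.02% on day 1, and that share would hold 30.6% of the summed member level of day 3. *Bst2* stood at 462 CPM in the monocytes/macrophages of that day, and the part of these markers in its neutrophil level was not tested. In monocytes/macrophages the same estimate of free RNA was 2.03% on day 1 and 1.47% on day 3.

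A small cluster led by *Hbb-bs* and endothelial genes was mixed, and no ratio was taken from it. On day 1, 74 of its 88 cells carried at least 2 UMIs of endothelial markers and fewer than 2 of T or NK cell markers, and on day 3, 22 of 68 did so while 32 of 68 carried T or NK cell markers in the same way. On day 3 the members summed to 1748 CPM (1570 to 1940) in the former and 1476 CPM (1250 to 1730) in the latter.

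**Figure D3:**
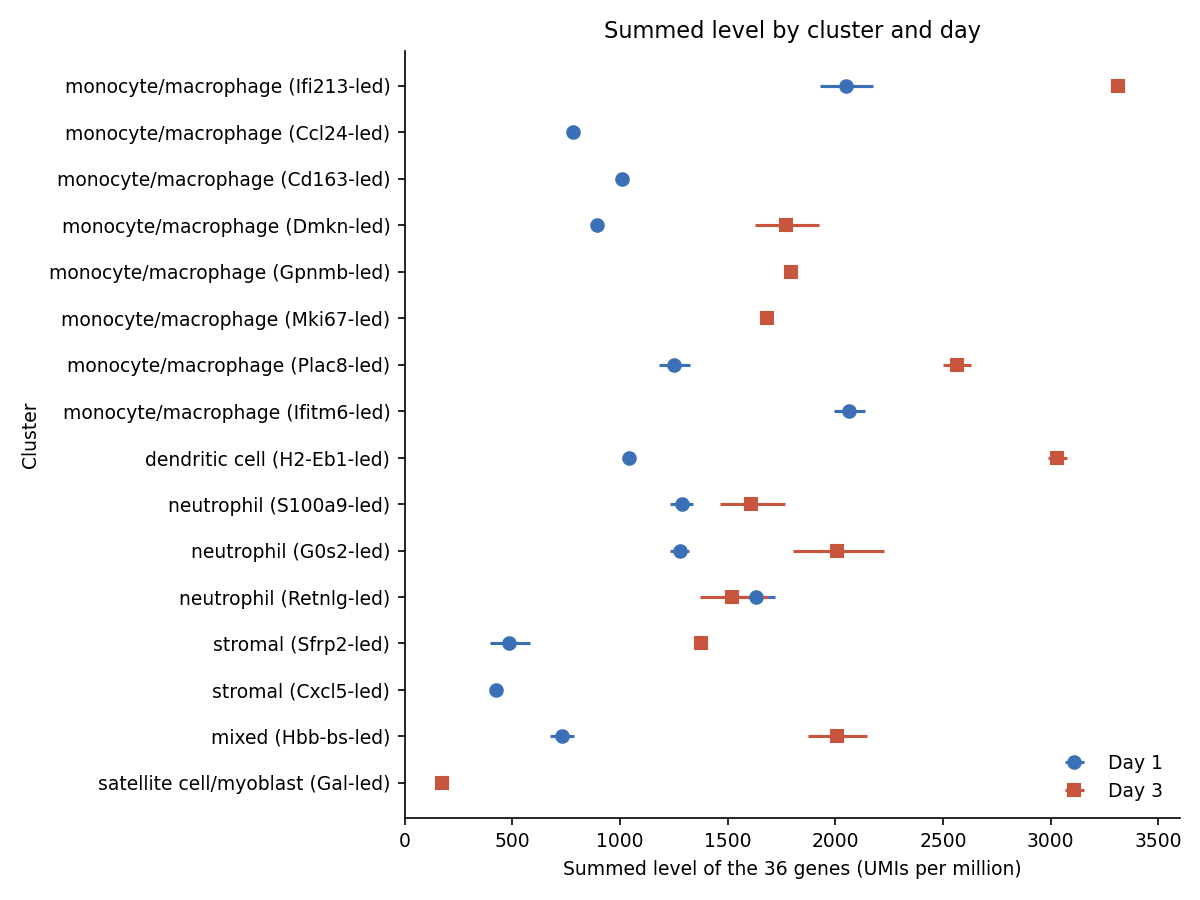
Summed level of the 36 members in each cluster on day 1 and day 3, in CPM with exact 95% Poisson intervals, for clusters with at least 25 cells of a day. The Ifi213-led monocytes/macrophages and the H2-Eb1-led dendritic cells of day 3 are the highest, and the Gal-led myoblasts are the lowest.

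Among the monocytes/macrophages the members were unevenly spread over clusters. The cluster led by *Ifi213*, an interferon-induced gene outside the 36, stood highest on day 3 at 3312 CPM (3283 to 3341) and held 1224 of the 2759 cells, and its 52 cells of day 1 stood at 2048 CPM (1927 to 2175). The members were not used to form the clusters, but cells alike in other genes can share them, and these levels are a description. The clusters led by *Gpnmb* and *Mki67*, almost all of day 3, stood at 1795 and 1683 CPM. The clusters led by *Ccl24*, *Dmkn* and *Cd163* stood at 783, 893 and 1010 CPM on day 1, and the 31 *Dmkn*-led cells of day 3 at 1770 CPM (1626 to 1924), so that each large cluster of day 3 was above each large cluster of day 1.

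The monocyte cluster led by *Plac8*, present on both days, stood at 1251 CPM in 113 cells of day 1 and 2566 CPM in 266 cells of day 3. A further monocyte cluster, led by *Ifitm6*, stood at 2063 CPM in 150 cells of day 1, with an interval (1992 to 2137) that overlapped that of the *Ifi213*-led cells of that day, but with other genes. *Samhd1* stood at 609 CPM, *Zbp1* at 140 CPM and *Irf7* at 137 CPM in the *Ifitm6*-led cells, whereas *Ifit1* was not detected and *Rsad2* stood at 3.96 CPM, against 125 CPM of *Rsad2* in the *Ifi213*-led cells of day 1. Without the *Ifi213*-led cluster the log2 ratio of the sum over the class was 0.95.

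The members were also unevenly spread over single cells. To compare cells of unequal depth, each was thinned to 2000 UMIs, which left out 66 monocytes/macrophages of day 1 and 14 of day 3. The median cell then held 1 member UMI on day 1 and 3 on day 3, and the mean was 1.95 and 5.46. Cells with no member UMI made up 29.2% (27.7 to 30.8) on day 1 and 8.09% (7.09 to 9.17) on day 3, and cells with at least 10 made up 1.74% (1.33 to 2.24), or 60 of 3441, and 14.4% (13.1 to 15.8), or 395 of 2745. The variance was 3.92 times the mean on day 1 and 10.0 times on day 3. At an equal relative spread this ratio rises with the mean, so it does not compare the unevenness of the days.

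**Figure D4:**
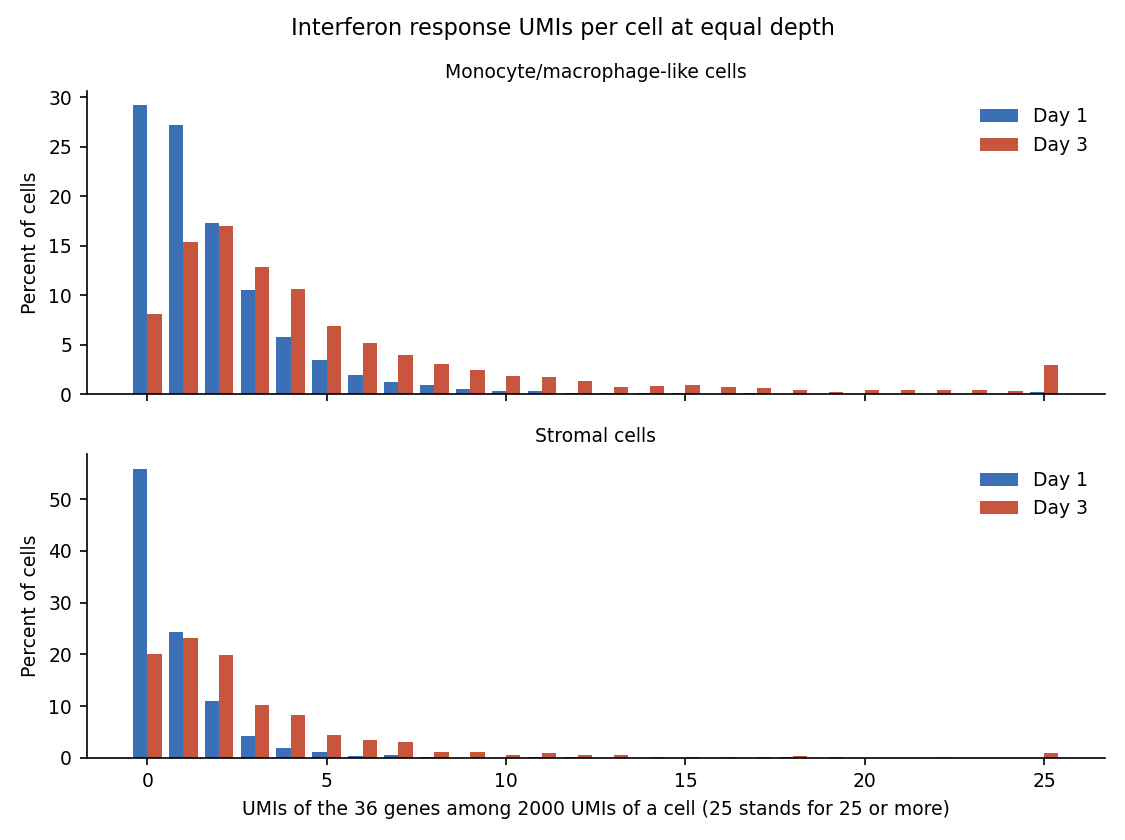
Number of member UMIs per cell after thinning to 2000 UMIs, as the percent of cells with each number on day 1 and day 3, for monocyte/macrophage-like cells (upper panel) and stromal cells (lower panel). Day 3 has fewer cells at 0 in both panels, 8.09% against 29.2% and 20.1% against 55.9%, and a longer tail to the right.

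Dendritic and stromal cells also had a larger share of cells with many member UMIs on day 3. Dendritic cells with at least 10 member UMIs made up 1.53% on day 1 and 18.1% on day 3, and stromal cells 0.459% and 5.08%. Stromal cells with none made up 55.9% on day 1 and 20.1% on day 3. Neutrophils had the widest spread of the classes on day 1, with a variance 11.4 times the mean, 28.0% of cells with none and 4.28% with at least 10, after 793 of 2078 shallower cells were left out. On day 3 the variance was 4.18 times the mean in the 52 neutrophils deep enough.

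The top 10% of monocytes/macrophages by member UMIs held 40.2% of the member UMIs on day 1 and 41.7% on day 3. The cells were ranked by the same counts, so that counting error raises these shares, and its part was not computed. With the cells thinned to 4000 UMIs the shares were 37% and 41.8%. Of the 344 top cells of day 1, 104 lay in the *Cd163*-led cluster, 80 in the *Ccl24*-led, 76 in the *Dmkn*-led and 51 in the *Ifitm6*-led cluster. They were 10.1%, 6.70%, 8.30% and 34.0% of the cells of these clusters. A further 18 lay in the *Ifi213*-led cluster, 37.5% of its 48 cells deep enough. Of the 274 top cells of day 3, 198, or 72.3%, lay in the *Ifi213*-led cluster, of which they were 16.3%. The top cells had a median of 10670 UMIs against 11329 in the others on day 1, and 10234 against 14640 on day 3, and their median mitochondrial share was 2.46% against 2.56% on day 1 and 4.08% against 4.21% on day 3.

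Members differed in how far they gathered in these cells. For each member the cells were ranked by the other 35, so that it did not choose its own cells. On day 3 the top 10% of cells so chosen held 77.8% of the *Ifit3* UMIs, 71.0% of *Ifit1*, 67.0% of *Rsad2*, 53.2% of *Isg15* and 44.3% of *Irf7*. They held 20.1% of *Samhd1*, 14.4% of *Irf9* and 14.2% of *Bst2*, the most abundant member. On day 1 the shares were 91.0% of *Ifit3*, 73.3% of *Rsad2*, 70.2% of *Ifit1*, 43.7% of *Irf7*, 37% of *Isg15* and 17.1% of *Irf9*.

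Over the members the median share was 31.0% on day 1 and 33.6% on day 3. In cells ranked by all members, the median share of the other genes was 9.32% on day 1 and 6.99% on day 3. The members thus ran from genes with a large part of their UMIs in these cells, such as *Ifit3* and *Rsad2*, to genes with a smaller part in them, such as *Bst2* and *Irf9*.

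**Figure D5:**
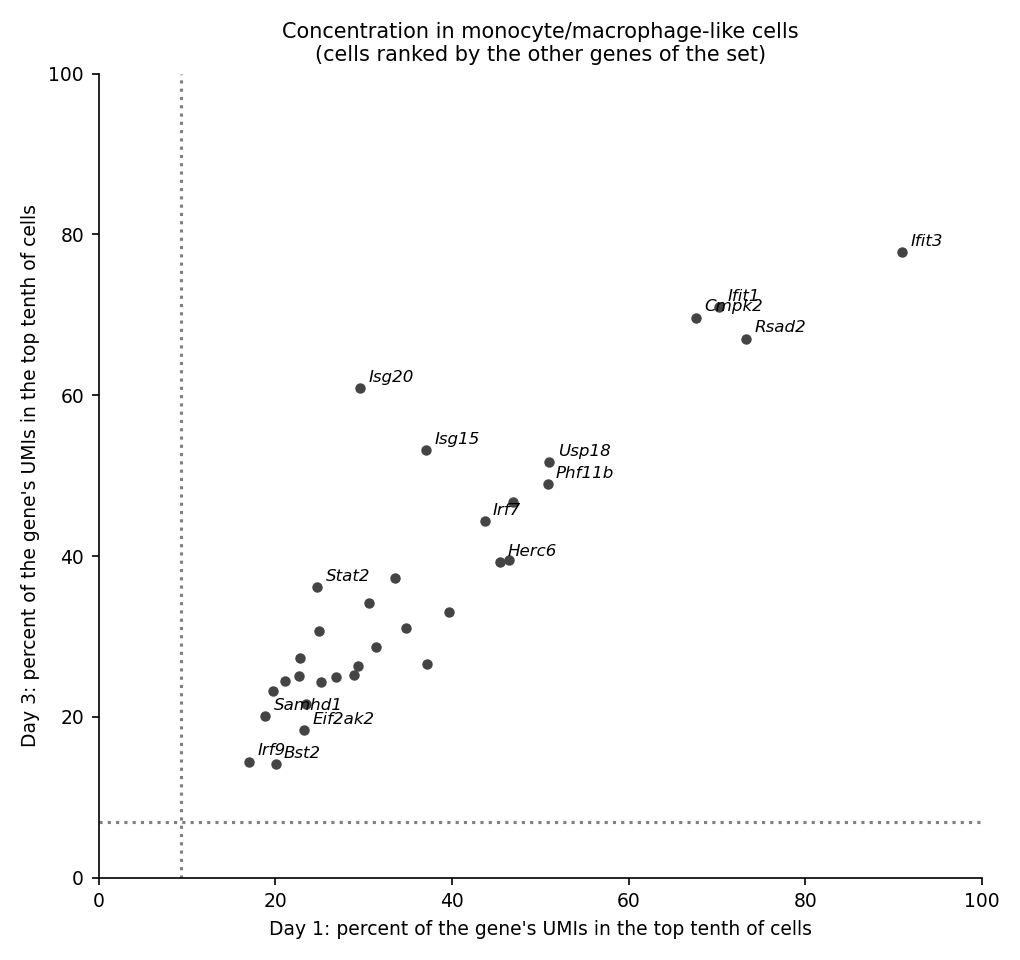
Percent of each member's UMIs found in the 10% of monocyte/macrophage-like cells that were highest for the other 35 members, with day 1 on the horizontal and day 3 on the vertical axis and 1 point per member with at least 50 UMIs on each day, so that Ifit2, Ifit3b and Ifi44 are not drawn. Ifit1, Ifit3, Rsad2 and Cmpk2 lie at the upper right, Bst2, Irf9 and Samhd1 at the lower left, and the dotted lines mark the medians of other genes, 9.32% on day 1 and 6.99% on day 3.

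The share of cells with a UMI also differed between the days. In monocytes/macrophages thinned to 2000 UMIs, *Ifit3* was detected in 0.232% of cells on day 1 and 6.27% on day 3, and *Rsad2* in 1.45% and 10.6%. *Bst2* was detected in 18.8% and 53.4%, *Irf9* in 3.69% and 8.49%, and *Isg15* in 14.0% and 21.8%. Without thinning the shares were 0.998% and 16.5% for *Ifit3*, 3.74% and 27.8% for *Rsad2*, 59.1% and 90.9% for *Bst2* and 38.0% and 51.9% for *Isg15*. In the thinned myoblasts of day 3, the class with the lowest levels, *Ifit3* was detected in 0 of 206 cells (up to 1.77% by the exact Clopper-Pearson interval), *Rsad2* in 0.971%, *Isg15* in 1.46% and *Bst2* in 4.85%, each under its share in the monocytes/macrophages of that day.

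The genes outside the 36 that followed the members most closely over cells were sought as those with the highest level in the top 10% of monocytes/macrophages over that in the other cells, taking the lower of the ratios of the days, among 5240 genes. The first was *Ifi206*, a member of the cytosolic DNA sensor family, with a ratio of 34.7 on day 1 and 18.1 on day 3, followed by its relative *Ifi213* with 19.6 and 17.2. The guanylate-binding protein *Gbp2* had 14.8 and 15.4, and the immunity-related GTPases *Ifi47*, *Igtp* and *Irgm1* had 12.4 and 14.3, 6.37 and 8.09, and 5.31 and 6.03. *Phf11d* had 6.49 and 10.0, *Slfn4* 5.86 and 12.4 and *Mndal* 4.70 and 6.67. *Plac8*, a marker of monocytes, had 4.88 and 5.86 and was the only one of the 10 not among the known interferon-induced genes listed for these data.

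The ligands were almost absent. *Ifnb1*, the interferon beta gene, was detected as 31 UMIs in 21 of 6735 cells on day 1, 19 of them monocytes/macrophages, and as 10 UMIs in 5 of 4627 cells on day 3. Its level was 0.436 CPM on day 1 and 0.119 CPM on day 3, a log2 ratio of -1.83 (-3.07 to -0.81). All 18 type I interferon genes together had 35 UMIs on day 1 and 14 on day 3, so that the ligands and the members differed in opposite directions between the days. *Ifng*, the type II interferon gene, had 0 UMIs on day 1 and 69 on day 3, at least 19.4-fold higher with 3 counts as the floor of day 1, and 66 of these came from the cells with T or NK cell markers in the mixed cluster.

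The receptors were not higher on day 3. *Ifnar1* stood at 77.2 CPM on day 1 and 60.3 CPM on day 3, and *Ifnar2* at 186 and 134 CPM. Of the 6 interferon receptor genes 0 were at least 2-fold higher and 1 lower, against 30.0% and 6.02% of all genes. *Jak1* stood at 139 and 146 CPM and *Tyk2* at 10.8 and 13.9 CPM. In stromal cells *Jak2*, a kinase of the interferon gamma receptor, stood at 23.5 and 96.6 CPM, a log2 ratio of 2.04.

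Among 10 upstream sensors and adaptors, *Tlr3* (log2 ratio 2.98) and *Tlr7* (1.58), the endosomal receptors for RNA, were at least 2-fold higher over all cells. The kinase *Ikbke* was lower (-1.44). Of all genes 30.0% were at least 2-fold higher over all cells and 6.02% lower, so being higher did not set this list apart. The mix of cells differed between the days, and its part in these ratios was not tested. *Irf8*, a factor of the myeloid lineage, was the only 1 of 5 further interferon regulatory factors at least 2-fold higher (1.11), again no more than among all genes. *Irf1* stood at 64.8 CPM and 35.0 CPM (-0.89). Among 4 negative regulators, *Socs3*, a feedback inhibitor of cytokine receptors, stood at 387 and 120 CPM over all cells (-1.69) and at 404 and 74.3 CPM in monocytes/macrophages (-2.44). *Socs1*, the inhibitor of the interferon receptors, stood at 15.5 and 17.4 CPM over all cells (0.17).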

How the data were processed

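Single cells of injured quadriceps were profiled by 3′ droplet RNA sequencing, 1 library per day from 5 pooled mice. The matrices deposited by the authors give raw UMI counts for each gene in every listed barcode, neither normalised nor limited to cells. The submitters' processing notes name Cell Ranger 5.0.0 and mm10. The libraries held 74852240 UMIs on day 1 and 102565783 on day 3. The 37 members, the other gene lists and the alternatives were chosen with earlier results of these data known.

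Ranked by UMIs, the first 7367 barcodes (day 1) and the first 6640 (day 3) were kept, and those with under 1000 UMIs, under 200 genes or over 7.5% mitochondrial UMIs were left out, which is a reading of the study's stated limits on genes per UMI and on mitochondrial share. Both libraries were normalised together with SCTransform (sctransform 0.4.2 in Seurat 5.3.0 and R 4.3.3), with the S minus G2M score and the mitochondrial share regressed out, with 10 principal components and a resolution of 0.8. Members, other interferon-induced genes and naming markers were removed from the 3000 variable features. A cluster was named after a list with at least 3 raised markers, unless more of another list's markers stood among its 10 leading genes, and all names mean similarity to that type. Clusters of the monocyte list were joined to the monocytes/macrophages, and those of the fibroblast and tenocyte lists form the stromal cells. The automatic threshold of Scrublet marked 1 and 0 cells and was judged not to have worked. Doublets were kept.

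UMIs were summed over cells and given per 1000000 UMIs (CPM) with exact Poisson intervals, and shares of cells with Clopper-Pearson intervals. Log2 ratios had 0.5 added to each count and an exact binomial interval, for genes with at least 20 UMIs over both days. With 1 library per day there is no p-value. Free RNA was estimated from barcodes of at most 100 UMIs, by collagen genes, or by *S100a8*, *S100a9* and *Retnlg* for stromal cells and myoblasts. The largest share of macrophage RNA was bounded by the macrophage marker that was lowest relative to its level in monocytes/macrophages. Poisson counts were simulated from the summed UMIs of all cells (15671 genes). Of the genes changed 3-fold 98.5% were called 2-fold, as were 0.756% of the unchanged genes. The true ratio lay within 95.7% of the intervals. Such counts hold no spread between cells, mice or libraries, so they check the calculation under counting error only. All members were described by role, and all with at least 100 UMIs by level. The genes most like them were the 10 with the highest ratio between the top 10% and other cells, among genes with at least 50 UMIs in the top cells of each day. Promoters came from RefSeq, gene positions from GENCODE on GRCm38. Python 3.11.15 was used with numpy 2.4.6, scipy 1.17.1, pandas 2.3.3 and matplotlib 3.10.9.

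The result of 1 gene of the pathway is not reported here.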

Additional observations from a re-analysis of the deposited data

How the results depend on the processing

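Each log2 ratio of the summed members kept its direction under every alternative that gave a value, except in neutrophils, and 0 members were at least 2-fold lower on day 3 over all cells or in monocytes/macrophages under each of them. Over all cells (1.14) the ratio was 1.12 with 15% mitochondrial UMIs allowed, 1.19 with cells called at 10% of the 99th percentile of UMIs, 1.19 as a mean of the cells' own levels, 1.28 with each cell thinned and 1.06 without *Bst2*. In monocytes/macrophages (1.28) these were 1.16 with the other cell call, 1.498 as a mean, 1.49 thinned and 1.16 without *Bst2*, and the ratio was 1.30 without likely doublets, 1.30 with 20 components, 1.34 with the interferon genes kept for clustering and 1.26 with each cell named by its own markers. In neutrophils (0.33) it was 2.06 with the other cell call, which left 12 cells of day 3, 0.54 without likely doublets, 0.54 with log-normalization, 0.64 with interferon genes kept, 0.62 as a mean, 0.034 thinned, 0.50 without *Samhd1* and 0.52 with each cell named. In dendritic cells (1.54) it was 1.48, 1.28, 1.46 and 1.16 with the other cell call, log-normalization, 20 components and interferon genes kept, 1.60 as a mean, 1.65 thinned, 1.62 without *Bst2* and 1.30 with each cell named. Without likely doublets no cluster took the name of dendritic cells, so that alternative gave no value. In stromal cells (1.70) it was 1.78 less free RNA, 1.84 as a mean, 1.79 thinned and 1.87 without *Bst2*. The top 10% of monocytes/macrophages held 41.8% of member UMIs on day 1 and 46.0% on day 3 without *Bst2*, 37% on day 1 with thinning to 4000 UMIs and 43.3% on day 3 with interferon genes kept. The cause of these shifts was not tested.

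Other alternatives were chosen after seeing the data. Centred on the median of all genes, the ratio was 0.65 over all cells, 0.78 in monocytes/macrophages, -0.39 in neutrophils, 1.23 in dendritic cells and 1.35 in stromal cells. So centred, 15 members over all cells and 17 in monocytes/macrophages were at least 2-fold higher, and the share of all genes was not computed. Without the *Ifi213*-led cluster the monocyte/macrophage ratio was 0.95 and the top share of day 3 was 39.8%, and without the clusters named by the monocyte list the ratio was 1.35. With the fibroblast list alone, which left 27 stromal cells on day 1, the stromal ratio was 1.51, and less macrophage RNA it was 1.73, or 0.21 in neutrophils. No paired analysis was possible because each day had 1 library from different mice. Variation between mice, and the part of library chemistry and of the 30.3% of day 3 barcodes lost to the mitochondrial limit, cannot be told apart from the day.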

Other observations

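*Ifnlr1*, the receptor chain of the type III interferons, was detected as 56 UMIs on day 1 and 2 on day 3. Of the 56 UMIs, 44 came from 41 of 2078 neutrophils, 1.97% of them (1.42 to 2.67), and 7 from 3507 monocytes/macrophages. *Ifnl2* and *Ifnl3*, of the ligands of that receptor, had 0 UMIs on both days.

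The cells that carried *Ifnb1* on day 1 held from 1 to 4 UMIs each. Among monocytes/macrophages 19 of 3507 cells, or 0.542% (0.326 to 0.845), carried it on day 1 and 2 of 2759, or 0.0725% (0.00878 to 0.262), on day 3.

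In the 14 cells of the mixed *Hbb-bs*-led cluster on day 3 that had fewer than 2 UMIs of endothelial cell markers and of T or NK cell markers, the 36 interferon response genes summed to 2930 CPM (2626 to 3260), above the 1748 CPM of its cells with endothelial markers. In stromal cells, where the negative regulator *Socs3* stood at 246 CPM on day 1 and 229 CPM on day 3, its log2 ratio was -0.10, against -2.44 in monocytes/macrophages and -0.90 in dendritic cells.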
